A study of Mus musculus with 9 samples.

Results

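The cytochrome P450 enzymes described here are the Cyp genes on the arrays whose symbol is Cyp followed by a family number, a subfamily letter and a gene number, as in Cyp3a11. By this rule 65 of 33012 probes were members, and they stood for 59 of the 15674 genes that carry a symbol. Cyp51, the sterol demethylase, has no subfamily letter and was left out as the 1 other Cyp gene. Of the 59 entries, 6 had a pair of probes, and 3 carried more than 1 symbol in the array files (Cyp2b13;Cyp2b9, Cyp2c50;Cyp2c54 and Cyp4v3;Klkb1, of which Klkb1 is no P450), so that their signal cannot be given to 1 gene. Of the 61 Cyp symbols, 60 are current in the RefSeq table of mouse genes and Cyp4a12 is not. That table holds 97 protein-coding Cyp genes named by the same rule, and 59 of them were on the arrays. Cyp2c65, Cyp2u1, Cyp3a25, Cyp3a41, Cyp26c1, Cyp27b1 and Cyp11b1 had no probe under these symbols and were not analysed here.

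Jejunal RNA of 9 male mice of the outbred stock OF1, aged 7 weeks, was measured on Applied Biosystems arrays of 1 colour, with 1 mouse per array. The mice were of generation 3 of a feeding trial and had received feed B (mice 7, 8 and 10), feed K (mice 1, 3 and 4) or feed G (mice 4, 8 and 11), with water and feed freely available under 12 h of light and 12 h of dark. According to the methods, food was withheld for 3 h before sampling and the time of day was neither recorded nor randomized. The methods name a custom maize diet as the subject of this data set, under conventional housing, and tie it to no letter. Neither the labels nor the methods say what the letters stand for, so that no feed was taken as a control, and litters are not given. Replicates are separate mice, numbered within a feed, and the numbers do not pair mice across feeds.

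Cytochrome P450 enzymes are heme proteins of the endoplasmic reticulum and of mitochondria that insert an oxygen atom into a substrate, with electrons from cytochrome P450 reductase or from ferredoxin. Members of families Cyp1, Cyp2 and Cyp3 act mostly on drugs, plant compounds and other foreign molecules, family Cyp4 hydroxylates fatty acids and eicosanoids, and the remaining families make or break down sterols, bile acids, steroid hormones, vitamin D and retinoic acid. In the small intestine they are found chiefly in villus enterocytes, where Cyp3a enzymes are the best known barrier to swallowed compounds. In RNA from whole tissue, fewer cells of a type and less RNA per cell cannot be told apart.

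The 3 Cyp3a genes that moved together in these mice are printed first. Beside them stands Cyp3a13, whose correlations with them were lower and hung on single mice. How far the probes of these 3 bind each other's transcripts was not tested, so that they are uncertain as separate measurements. The RefSeq promoter windows (build GRCm38.p6, 250 bases before to 50 after the annotated start, each on the minus strand of chromosome 5 and written 5′ to 3′ along the gene) were at chr5:145879805-145880104 for Cyp3a11, chr5:145469674-145469973 for Cyp3a16, chr5:145805825-145806124 for Cyp3a44 and chr5:137921570-137921869 for Cyp3a13. Capitals mark TGTTTAC and ATATAA, searched on both strands, where neighbouring matches may overlap.
Cyp3a11: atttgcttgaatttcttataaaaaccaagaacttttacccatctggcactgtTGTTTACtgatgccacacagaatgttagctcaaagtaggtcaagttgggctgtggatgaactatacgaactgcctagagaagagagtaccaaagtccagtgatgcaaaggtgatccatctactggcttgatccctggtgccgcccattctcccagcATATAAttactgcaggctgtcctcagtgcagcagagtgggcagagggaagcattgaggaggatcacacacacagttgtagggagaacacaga
Cyp3a16: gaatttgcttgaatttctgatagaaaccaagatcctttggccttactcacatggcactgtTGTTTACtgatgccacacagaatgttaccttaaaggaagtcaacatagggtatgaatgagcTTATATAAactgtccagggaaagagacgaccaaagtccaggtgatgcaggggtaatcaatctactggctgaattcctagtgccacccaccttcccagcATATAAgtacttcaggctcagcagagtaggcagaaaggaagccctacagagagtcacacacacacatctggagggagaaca
Cyp3a44: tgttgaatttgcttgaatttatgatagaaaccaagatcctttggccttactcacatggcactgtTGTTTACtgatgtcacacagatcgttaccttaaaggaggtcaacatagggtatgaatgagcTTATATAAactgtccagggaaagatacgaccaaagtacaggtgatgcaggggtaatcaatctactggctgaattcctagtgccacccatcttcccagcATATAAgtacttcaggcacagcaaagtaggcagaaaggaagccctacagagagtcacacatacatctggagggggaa
Cyp3a13: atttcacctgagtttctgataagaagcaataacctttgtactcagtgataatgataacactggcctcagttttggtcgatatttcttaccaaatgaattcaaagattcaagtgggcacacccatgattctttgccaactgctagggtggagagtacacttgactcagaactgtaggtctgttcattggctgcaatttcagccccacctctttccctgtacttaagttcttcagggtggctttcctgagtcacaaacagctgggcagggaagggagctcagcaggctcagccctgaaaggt
In a global alignment the windows of Cyp3a16 and Cyp3a44 were identical at 95.3% of aligned columns, gaps counted as different. Cyp3a11 shared 76.7% with Cyp3a16 and 74.7% with Cyp3a44, and Cyp3a13 shared between 57.4% and 59.1% with the others. TGTTTAC stood at -198 in Cyp3a11, -190 in Cyp3a16 and -186 in Cyp3a44, counted from the start, and ATATAA stood at -42, -31 and -27. ATATAA occurred once more in Cyp3a16 and in Cyp3a44, overlapping a match on the opposite strand. Neither run of letters was in the window of Cyp3a13. TGTTTAC was found in 3.65% of the 32851 promoter windows of the RefSeq table and in 7 of the 55 windows of Cyp genes, and ATATAA in 9.82% and in 7 of 55. Of 5 runs of letters searched these were the ones in all 3 windows, which are among the 7 Cyp windows each time. AGGTCA (16.3% of all windows) was in those of Cyp3a11 and Cyp3a44 and not of Cyp3a16, TGAACT (14.0%) in that of Cyp3a11 alone, and GCGTG (32.4%) in none of the 4. The letters shown were picked after the sequences had been seen, and a match is a description of the window and not a bound site. Cyp3a11 and Cyp3a44 are neighbours in that table with no protein-coding gene between them, Cyp3a16 lies in the same cluster, and 126 protein-coding genes lie between Cyp3a11 and Cyp3a13.

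Detection on an array meant that at least 1 probe of the gene reached a signal-to-noise ratio of 3 without a failed flag. On single arrays between 27 and 35 of the 65 Cyp probes (41.5% to 53.8%) were detected, against 33.7% to 48.1% of all probes. These sets are unlike, since 17302 of all probes carry a gene symbol and every Cyp probe does. Of the 59 Cyp genes, 21 (35.6%) were detected on all 9 arrays, and 37.6% of all genes were. On no array were 16 Cyp genes (27.1%) detected, compared with 20.5% of all genes. Of the 585 spots of Cyp probes 195 had a signal-to-noise ratio below 1, and for such spots the deposited signal equals the spot's own standard deviation, so that the level given there is that of the noise. Detected combinations of gene and mouse numbered 81 of 177 on feed B, 90 of 177 on feed K and 97 of 177 on feed G. The share of all probes, with or without a symbol, detected on single arrays was 33.7% to 43.6% on feed B, 41.2% to 47.6% on feed K and 46.4% to 48.1% on feed G. Both ends of these ranges rose in the same order of feeds as the Cyp counts. The part of this share in the Cyp counts was not tested.

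**Figure D1:**
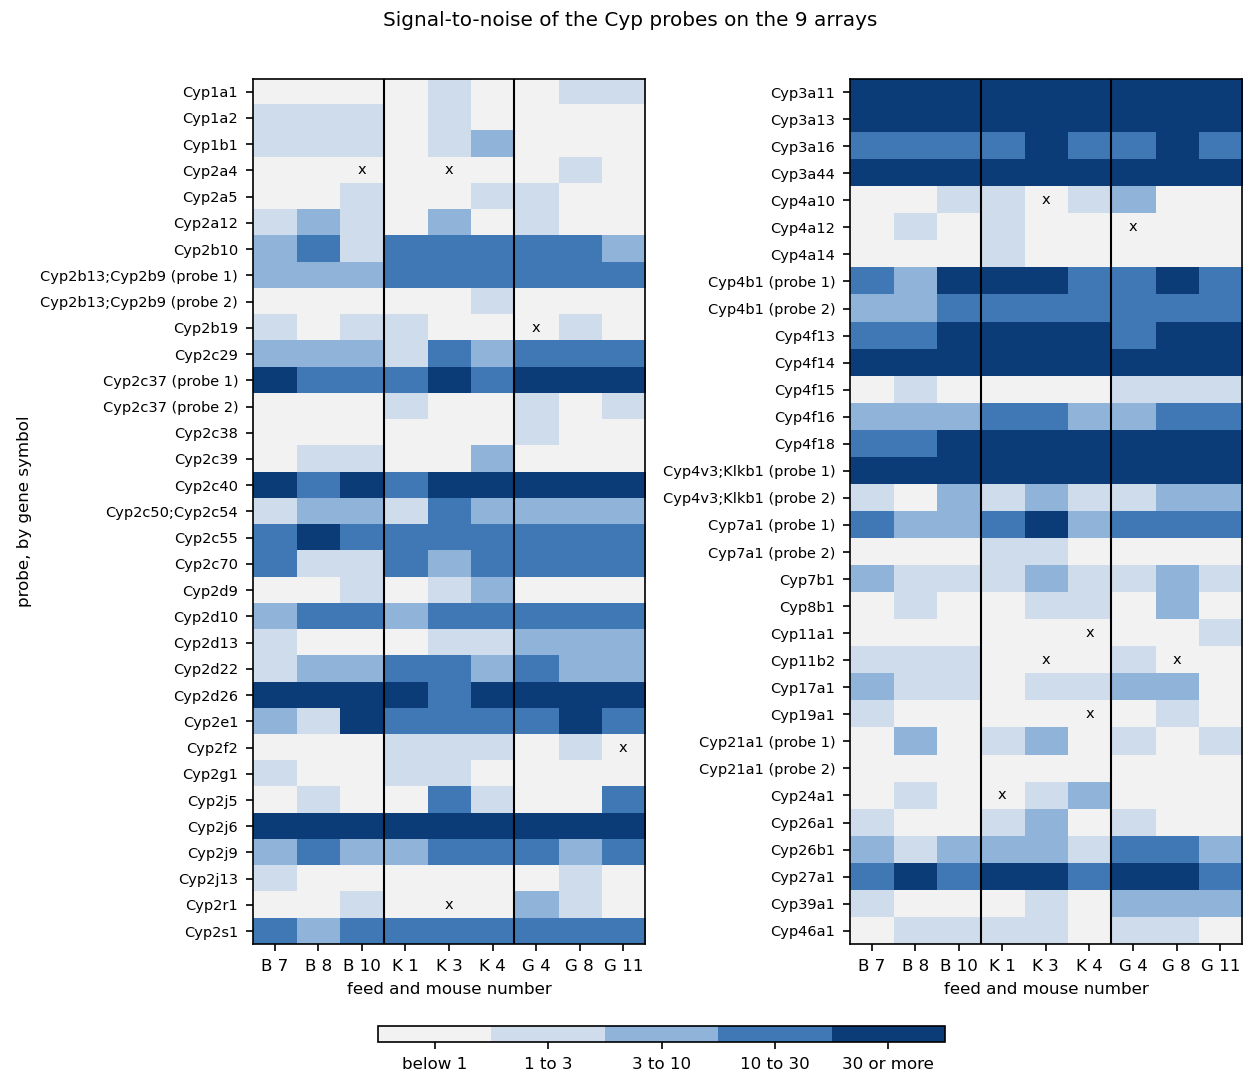
Signal-to-noise ratio of each of the 65 Cyp probes (rows) in the 9 mice (columns, grouped by feed), in 5 colour classes, with x for a spot with a failed flag. The 4 Cyp3a rows are dark in every mouse, the rows of Cyp1a and Cyp4a are pale, and Cyp39a1 and Cyp2d13 pass a ratio of 3 in the 3 mice of feed G alone.

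By subfamily, all 4 Cyp3a genes were detected on all 9 arrays, as were 4 of 5 Cyp4f genes (Cyp4f13, Cyp4f14, Cyp4f16 and Cyp4f18, which hydroxylate leukotrienes and other eicosanoids), Cyp4b1, Cyp2s1 and Cyp27a1. In Cyp2c 3 of 8 entries were detected in every mouse (Cyp2c37, Cyp2c40 and Cyp2c55), in Cyp2d 2 of 5 (Cyp2d10 and Cyp2d26) and in Cyp2j 2 of 4 (Cyp2j6 and Cyp2j9). Cyp2b10, the classical target of the receptor CAR, Cyp2e1, which oxidizes ethanol, Cyp2c29 and Cyp2d22 were each detected on 8 arrays.

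The family Cyp1, whose members are induced through the aryl hydrocarbon receptor, was near background. Cyp1a1 and Cyp1a2 were detected in none of the 9 mice, with signal-to-noise ratios between -0.09 and 1.72 for Cyp1a1 and between -1.86 and 2.81 for Cyp1a2. Cyp1b1 was detected in mouse 4 of feed K alone, at 4.06. The receptor itself, Ahr, was likewise detected on none of the arrays, whereas the further receptor target Nqo1, a quinone reductase, was detected on all 9. Of the Cyp4a genes, targets of the fatty acid receptor PPAR alpha, Cyp4a12 and Cyp4a14 were not detected, and Cyp4a10 passed the threshold in mouse 4 of feed G alone, at 6.98. Ppara was detected on all arrays.

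Steroid hormone P450s were mostly below detection. Cyp11a1, which starts steroid synthesis, Cyp11b2 and Cyp19a1, the aromatase, were detected nowhere, Cyp21a1 in 2 mice and Cyp17a1 in 3. Of the vitamin D P450s, Cyp24a1, which inactivates the hormone, was detected in mouse 4 of feed K alone, and Cyp2r1, a hydroxylase that activates vitamin D, in mouse 4 of feed G alone, although the receptor Vdr was detected in all 9 mice. The retinoic acid hydroxylase Cyp26a1 was detected in mouse 3 of feed K and Cyp26b1 in 7 mice.

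Of the sterol and bile acid P450s, Cyp27a1, the mitochondrial sterol hydroxylase of the acidic bile acid pathway, was detected in all 9 mice with ratios between 17.7 and 67.2. Cyp7a1, the rate-limiting enzyme of bile acid synthesis in liver, had 1 probe detected on all 9 arrays, with ratios of 8.30 to 37.1, and a second probe detected on none, with a highest ratio of 1.56. The first probe ran from 9.33 to 10.44 on the log2 scale with an SD of 0.39. Which of both probes reports the transcript was not tested. Cyp8b1, which sets the share of cholic acid, was detected in 1 mouse, Cyp7b1 in 3 and Cyp46a1, the brain cholesterol hydroxylase, in none. The hepatocyte markers were low, with 1 of 7 measured genes (Ttr) detected on all arrays and Tat on none, and of 5 measured pancreatic acinar markers 3 were detected nowhere. The summed hepatocyte signal ranged on the log2 scale from 9.79 to 10.28 on feed B, 10.03 to 10.96 on feed K and 9.32 to 11.05 on feed G.

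Cyp3a11, the main Cyp3a enzyme of adult mouse liver and intestine, had log2 signals of 14.86, 14.84 and 13.73 in mice 7, 8 and 10 of feed B, 14.17, 14.23 and 14.23 in mice 1, 3 and 4 of feed K, and 14.87, 14.55 and 11.70 in mice 4, 8 and 11 of feed G. Mouse 11 of feed G was 9.04-fold below the highest mouse and stood apart from the others, while its companions on feed G were among the highest. The 3 mice of feed K differed by less than 0.1.

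Cyp3a16, described mainly from fetal liver, ran at 14.03, 14.15 and 12.82 on feed B, at 13.32, 13.42 and 13.21 on feed K, and at 14.19, 13.73 and 10.94 on feed G. Cyp3a44, known as a predominantly female liver form, gave 14.91, 14.95 and 13.43 on feed B, 14.01, 13.78 and 14.10 on feed K, and 14.80, 14.17 and 11.49 on feed G. Both were lowest in mouse 11 of feed G and next lowest in mouse 10 of feed B, as was Cyp3a11. Over the 9 mice the fold from lowest to highest was 9.51 for Cyp3a16 and 11.1 for Cyp3a44.

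The remaining member, Cyp3a13, did not share this order. Its log2 signals were 13.98, 15.42 and 14.90 on feed B, 14.79, 14.996 and 14.15 on feed K, and 14.87, 14.80 and 13.94 on feed G, a range of 2.79-fold. Mice 7 of feed B, 4 of feed K and 11 of feed G were low, and mouse 7 of feed B was among the high ones for the other members.

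Across the 9 mice the Pearson correlation was 0.995 between Cyp3a11 and Cyp3a16, 0.986 between Cyp3a11 and Cyp3a44 and 0.985 between Cyp3a16 and Cyp3a44, with Spearman's rho of 0.967, 0.883 and 0.883. In exact permutation tests, two-sided and adjusted over the 17 pairs of genes within a subfamily that were computed, p was 0.00063, 0.00063 and 0.0010 for r and 0.0028, 0.013 and 0.013 for rho. Without mouse 11 of feed G r was 0.988, 0.960 and 0.939, and without both mice farthest from the median of the first gene it was 0.986, 0.953 and 0.931. With the feed means subtracted it was 0.996, 0.987 and 0.987. Cyp3a13 had r of 0.47 with Cyp3a11, 0.51 with Cyp3a16 and 0.42 with Cyp3a44 (adjusted p 0.41, 0.40 and 0.41, exact permutation), and without mouse 11 of feed G these were -0.03, 0.11 and -0.07. Without mouse 7 of feed B they were 0.73, 0.76 and 0.72 (adjusted p 0.094, 0.067 and 0.094, exact permutation). The r of Cyp3a13 with the others thus hung on single mice in both directions. The sequences of the array probes were not used here, and how far the probes of Cyp3a11, Cyp3a16 and Cyp3a44 bind each other's transcripts was not tested, so that these genes are uncertain as separate measurements.

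**Figure D2:**
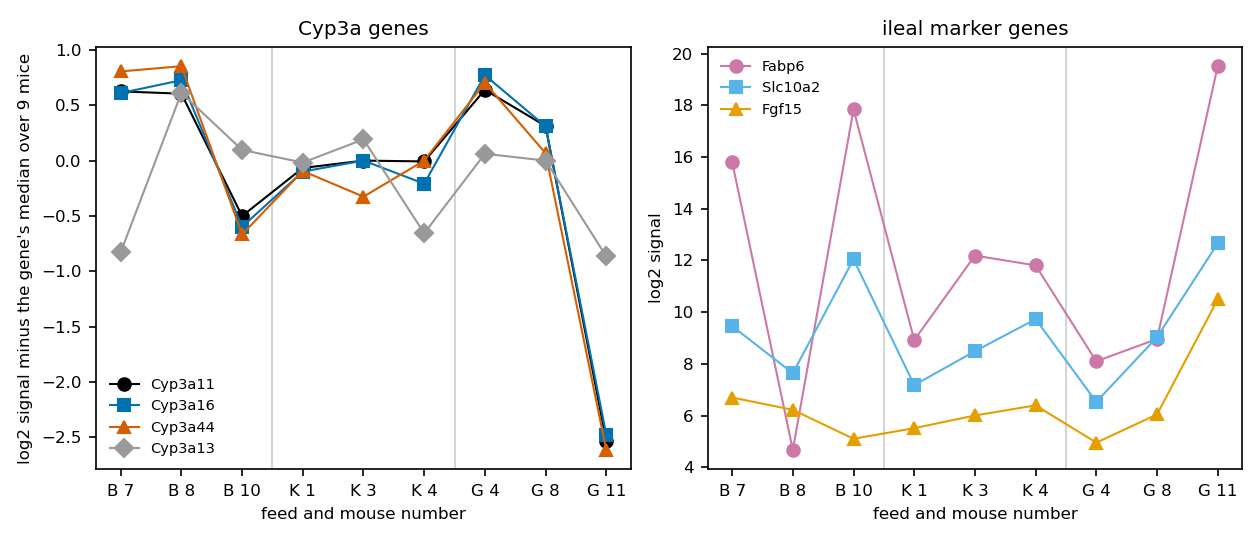
Left, log2 signal of the 4 Cyp3a genes in each mouse minus the gene's median over the 9 mice; right, log2 signal of 3 ileal marker genes in the same mice, with vertical lines between feeds. Cyp3a11, Cyp3a16 and Cyp3a44 lie on one another and fall by more than 2 in mouse 11 of feed G, where Fabp6, Slc10a2 and Fgf15 have their highest values.

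Markers of the ileum, the lower part of the small intestine, were highest in the mouse with the lowest Cyp3a11. The ileal bile acid binding protein Fabp6 had log2 signals of 15.81, 4.67 and 17.84 on feed B, 8.92, 12.19 and 11.81 on feed K, and 8.10, 8.96 and 19.51 on feed G. High values were thus found in mice 7 and 10 of feed B and in mouse 11 of feed G, and Cyp3a11 was low in the latter pair and not in mouse 7. The ileal bile acid transporter Slc10a2 was detected in 6 mice, with its highest values of 12.66 in mouse 11 of feed G and 12.05 in mouse 10 of feed B, and the hormone Fgf15 was detected in mouse 11 of feed G alone (10.49). The summed log2 signal of the 3 measured ileal genes ran from 8.23 to 17.86 on feed B, from 9.40 to 12.31 on feed K and from 8.64 to 19.53 on feed G. None of the 3 was detected in all mice, and no ileal gene fell below detection everywhere. Fabp1, a proximal fatty acid binding protein, was lowest in mouse 11 of feed G (16.40, against 17.50 to 19.35 elsewhere), while Fabp2 was highest there (20.79). The part of the sampled segment in the Cyp3a levels was not tested.

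No feed difference in Cyp3a passed the test, and the direction of feed G against feed B hung on 1 mouse. The mean of all 4 genes was lower under feed G than under feed B (median log2 difference -0.74), and without mouse 11 of feed G all 4 were higher (median 0.15). With arrays scaled to their medians, and in the series table, 3 of 4 were lower, where the medians of all genes were 0.53 and 0.30. All 4 were also lower on feed K than on feed B (median -0.31), and in the series table likewise (-0.18, all genes 0.21). After median scaling 3 of 4 were higher on feed K (median 0.08), yet the median of all genes was 0.41. Without mouse 8 of feed B 3 of 4 were lower on feed K, with a median of -0.10. For Cyp3a11 the difference of feed G from feed B was -0.77 with a 95% interval from -2.52 to 0.98 (adjusted p of the feed effect 0.931, limma), so that a change of this size in either direction was not detectable with 3 mice per feed.

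Cyp39a1, the oxysterol hydroxylase that prepares 24-hydroxycholesterol for bile acid synthesis, had the smallest unadjusted p for the feed effect among the Cyp genes. Its log2 signals were 6.03, 6.61 and 5.9995 on feed B, 6.17, 6.20 and 6.21 on feed K, and 7.51, 7.78 and 7.99 on feed G. All 3 mice of feed G lay above the 6 others. How many of all genes separate feeds in this way was not counted, here or for the genes below. Signals of feeds B and K at ratios below 1, listed next, are levels of the noise. Signal-to-noise ratios were 1.58, 0.70 and 0.97 on feed B, 0.53, 1.31 and -1.26 on feed K, and 3.38, 5.57 and 4.04 on feed G, so that the gene was detected in the 3 mice of feed G and in no other mouse. Since it was not well above background on feeds B and K, no exact fold can be given. Lower values were raised to the lowest signal of a detected probe of each array. Feed G was then 2.74-fold above feed B (measured means 7.76 and 6.21) and 2.94-fold above feed K (6.19). That bound is not the detection limit of this spot, so that these folds are not minimum values.

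The fit gave a log2 difference of 1.55 ± 0.22 (SE) for Cyp39a1 on feed G against feed B (adjusted p = 0.261) and of 1.57 ± 0.22 against feed K (adjusted p = 0.470), with unadjusted p of 0.00011 and 9.7e-05. Both comparisons share the mice of feed G. Over the 9652 genes tested the adjusted p of the feed effect was 0.563, and the result did not pass the correction. The gene entered the test through its detection on feed G alone, and its SE draws on feeds B and K, where its signals were near noise.

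Cyp2d13, whose substrates are little known, had the same pattern of detection with another pattern of signal. Its log2 signals were 8.32, 6.69 and 5.55 on feed B, 5.58, 6.65 and 7.06 on feed K, and 6.81, 7.04 and 7.78 on feed G. The feeds overlapped, and the highest signal was that of mouse 7 of feed B, whose spot had a signal-to-noise ratio of 1.67. On feed G the ratios were 3.53, 3.02 and 5.87, of which the first pair lies close to the threshold. Like Cyp39a1 it entered the test through its detection on feed G alone, and no fold is given for it. Detection in all 3 mice of feed G and in none of feeds B and K was found for 2 of 59 Cyp genes and for 0.179% of all genes, and detection in all mice of 1 feed and none of another for the same 2 and for 1.81%.

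**Figure D3:**
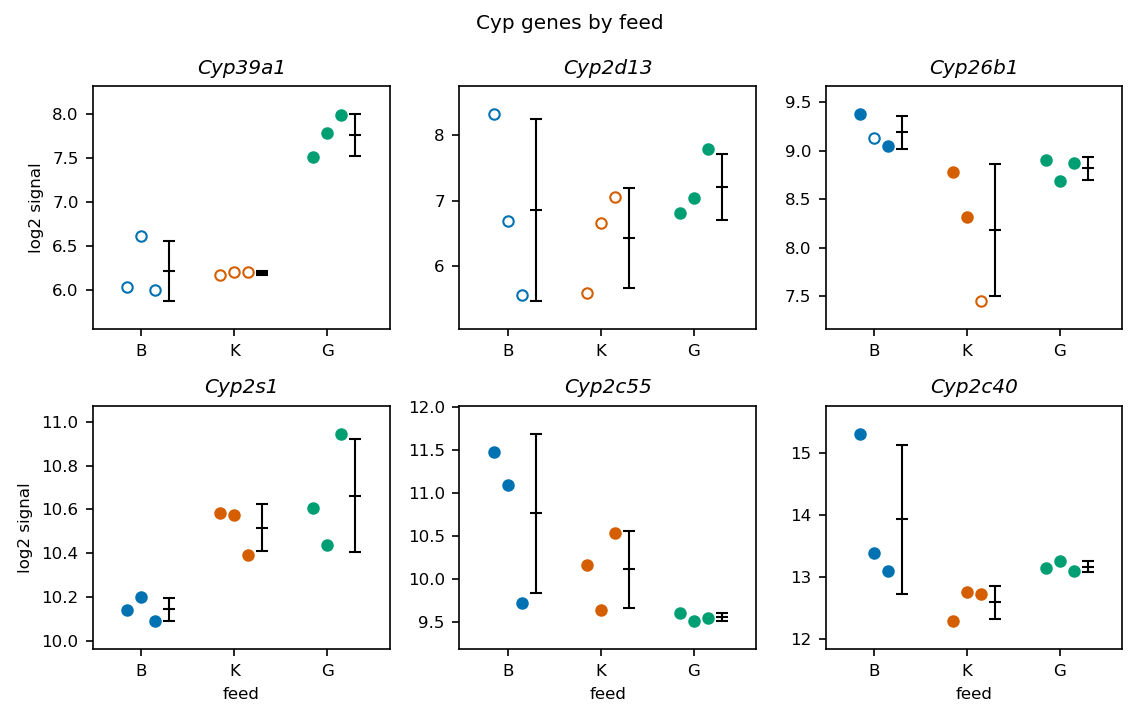
Log2 signal of 6 Cyp genes by feed, with 1 point per mouse, filled from a signal-to-noise ratio of 3 upwards and open below, and the mean ± SD (n = 3) beside each feed. Cyp39a1 separates feed G (mean 7.76) from feeds B and K (6.21 and 6.19), and the mean of Cyp2c40 on feed B is carried by 1 mouse at 15.30.

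No Cyp gene passed an adjusted p of 0.05, in the test of the feed effect or in any of the 3 pairs, and 0% of the 9652 genes tested did. Of the 59 Cyp genes, 32 reached detection on 3 or more arrays and entered the test. At an unadjusted p under 0.05 the feed effect counted 2 of 32 (Cyp39a1 and Cyp26b1), against 5.37% of all genes. Feed K was lower than feed B for 2 Cyp genes (1.97% of all genes) and higher for 0 (4.34%). Feed G was higher than feed B for 3 (3.84%) and lower for 1 (1.9%), and higher than feed K for 1 (2.14%) and lower for 0 (2.39%). These are counts of 0 to 3 genes of 32, and nothing is read from them about the family. The median log2 difference over the 32 genes was -0.01 for feed K against feed B, -0.04 for feed G against feed B and -0.10 for feed G against feed K, beside 0.05, 0.06 and -0.01 over all genes tested.

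**Figure D4:**
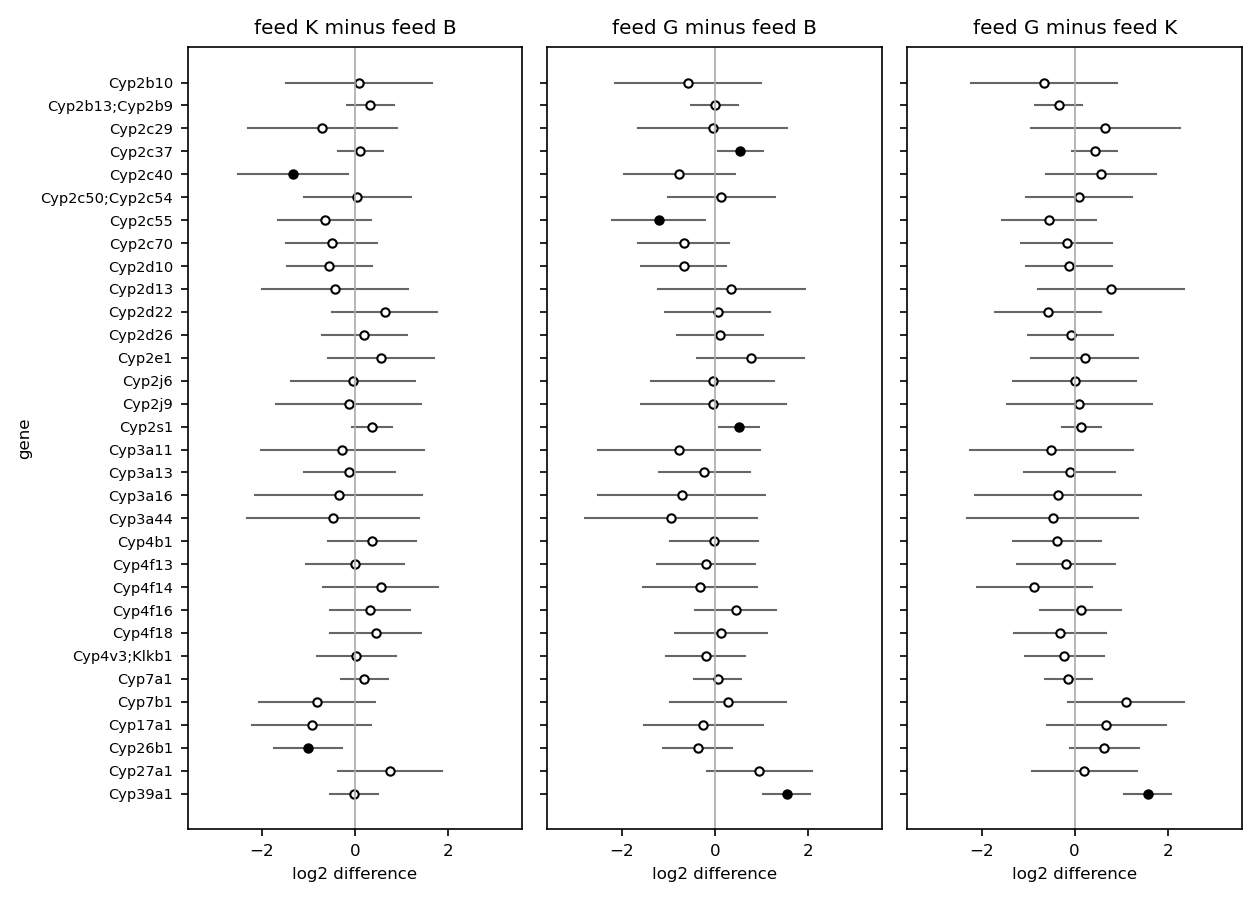
Log2 difference between feeds for the 32 tested Cyp genes, with the 95% interval of the limma fit, filled where the unadjusted p was under 0.05. Most intervals span 0 and reach more than 1 on both sides together, and Cyp39a1 has the narrow intervals farthest from 0 in both comparisons with feed G. Cyp39a1 was detected on feed G alone, and its signals on feeds B and K are near noise, so that its narrow intervals are no measure of precision.

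Cyp26b1, which degrades retinoic acid, had log2 signals of 9.38, 9.13 and 9.05 on feed B, 8.78, 8.32 and 7.45 on feed K, and 8.91, 8.68 and 8.87 on feed G. Feed K lay below feed B without overlap, and mouse 4 of feed K was lowest, with a ratio of 1.99 that did not count as detected. The difference of feed K from feed B was -1.01 ± 0.32 (SE; adjusted p = 0.773), with an unadjusted p of 0.013. It was -0.65 without mouse 4 of feed K, and -0.55 with an unadjusted p of 0.178 after median scaling, where the median of all genes was 0.41. Mouse 8 of feed B, at a ratio of 2.48, was not detected either, although its log2 signal was 9.13.

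Cyp2s1, an extrahepatic P450 of epithelia, was among the steadiest members. It had log2 signals of 10.14, 10.20 and 10.09 on feed B, 10.58, 10.57 and 10.39 on feed K, and 10.61, 10.44 and 10.94 on feed G. All mice of feed B lay below the 6 others. Feed G was higher than B by 0.52 ± 0.19 (SE; adjusted p = 0.802), or 1.43-fold, with an SD over the 9 mice of 0.27. This difference was 1.08 after median scaling and 0.87 in the series table, where the medians of all genes were 0.53 and 0.30, and 0.86 with spots below a signal-to-noise ratio of 1 left out.

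Cyp2c55, an arachidonic acid hydroxylase first described in colon, gave 11.48, 11.10 and 9.72 on feed B, 10.16, 9.65 and 10.53 on feed K, and 9.61, 9.52 and 9.55 on feed G. The mice of feed G lay within 0.1 of each other and below all others, of which mouse 3 of feed K was nearest. Feed G was lower than feed B by a log2 difference of -1.21 ± 0.44 (SE; adjusted p = 0.802). The difference was -0.66 after median scaling, and -1.74 without mouse 10 of feed B (unadjusted p = 0.00046, adjusted p = 0.0999).

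Cyp2c40 had log2 signals of 15.30, 13.39 and 13.10 on feed B, 12.29, 12.76 and 12.73 on feed K, and 13.14, 13.26 and 13.10 on feed G. Mouse 7 of feed B was 3.78-fold above the next mouse, and the 3 mice of feed K were the lowest. The difference of feed K from feed B was -1.34 ± 0.52 (SE; adjusted p = 0.784), and it was -0.65 without mouse 7 of feed B.

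Cyp2c37 had 1 probe detected in all mice and another in none. Feed G exceeded feed B by 0.55 ± 0.21 (SE; adjusted p = 0.841) in the averaged signal. The detected probe gave 11.53, 11.81 and 10.67 on feed B, 11.16, 11.91 and 11.26 on feed K, and 11.92, 12.27 and 11.29 on feed G, and feeds overlapped. Of the other probe the highest log2 signals, 6.26 and 6.62, were in mice 4 and 11 of feed G. The difference was 0.35 in the series table, and with spots at noise level left out it turned to -1.01. In that setting the undetected probe stayed in the average for mouse 1 of feed K and mice 4 and 11 of feed G (ratios 1.32, 2.64 and 2.40). All other mice kept the detected probe alone, so that the value of -1.01 sets unlike averages of probes side by side.

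The next genes in the order of the feed effect had unadjusted p of 0.168 to 0.313. Cyp27a1 had means of 10.90 ± 0.95 (SD, n = 3) on feed B, 11.65 ± 0.14 on feed K and 11.86 ± 0.66 on feed G, with mice 7 and 10 of feed B lowest at 10.70 and 10.06. Cyp2d10 had means of 9.99 ± 0.52, 9.44 ± 0.72 and 9.32 ± 0.24. Cyp7b1, an oxysterol hydroxylase, ranged from 5.19 to 7.91 and Cyp17a1 from 5.75 to 8.34, both detected in 3 of 9 mice. For these and for Cyp2b13;Cyp2b9, Cyp2c70 and Cyp4f14, the adjusted p of the feed effect was 0.903. Cyp2c70, the muricholic acid enzyme of mouse liver, was highest at 11.49 in mouse 8 of feed B, where its ratio of 1.52 did not count as detected.

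The 21 Cyp genes detected on all arrays had a higher median spread between mice than all genes so detected, given here as a description with no test. Their median SD over the 9 mice was 0.55 on the log2 scale, against 0.29 for the 5887 genes detected on all arrays, and 18 of the 21 lay above that median, 17 above the upper quartile of 0.42 and 9 above percentile 90 (0.58). The lowest and highest mouse differed by more than 2-fold for 18 of 21 Cyp genes (85.7%) and for 42.1% of all genes, with a median range of 2.94-fold against 1.85-fold. Within feeds the median SD was 0.58, against 0.28. When genes were split by mean signal into 3 equal classes, 10 Cyp genes of the brightest class had a median SD of 0.72 and all its genes 0.25. In the middle class 4 Cyp genes had 0.49 against 0.27, and in the dimmest 7 had 0.48 against 0.37.

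**Figure D5:**
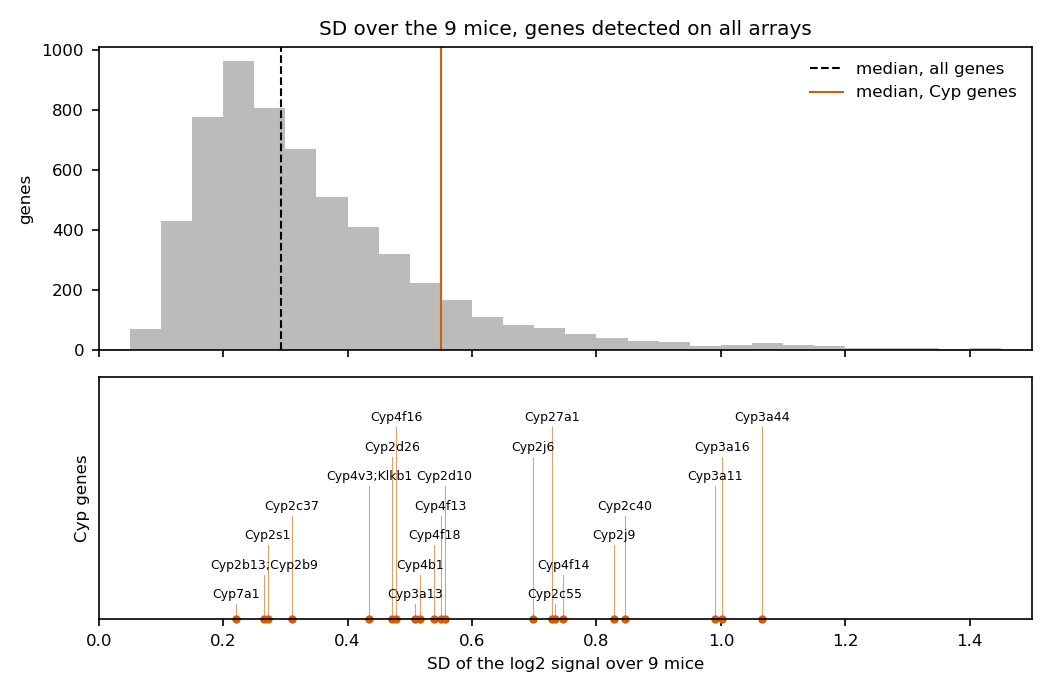
Top, number of genes detected on all 9 arrays by the SD of log2 signal between the 9 mice, with the median of all 5887 genes (0.29, dashed) and of the 21 Cyp genes (0.55, solid). Bottom, the 21 Cyp genes at their own SD, from Cyp7a1 at 0.22 to Cyp3a44 at 1.07; heights are for legibility only.

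The largest SDs were those of Cyp3a44 (1.07), Cyp3a16 (1.00), Cyp3a11 (0.99), Cyp2c40 (0.85) and Cyp2j9 (0.83). The smallest were those of Cyp7a1 (0.22), Cyp2b13;Cyp2b9 (0.27), Cyp2s1 (0.27), Cyp2c37 (0.31) and Cyp4v3;Klkb1 (0.43). Of the latter, all but Cyp2s1 are means of a detected and a mostly undetected probe. Their detected probes alone had SDs of 0.39 for Cyp7a1, 0.60 for Cyp2b13;Cyp2b9, 0.49 for Cyp2c37 and 0.82 for Cyp4v3;Klkb1, so that Cyp2s1 was steadier than any of these. The detected probe of Cyp4v3;Klkb1 was lowest in mouse 11 of feed G, at 12.24, with 13.54 to 14.93 in the others. Cyp4b1, a hydroxylase of fatty acids and plant toxins, had both probes detected in every mouse, with SDs of 0.57 and 0.47 and the lowest signal in mouse 11 of feed G for each (10.30 and 11.81).

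Mouse 11 of feed G held the lowest signal for 6 of the 21 genes and mouse 10 of feed B for 5, where they held it for 17.3% and 13.0% of all genes detected on all arrays. Those of mouse 11 of feed G included all Cyp3a genes, of which Cyp3a11, Cyp3a16 and Cyp3a44 are uncertain as separate measurements. Mice 8 of feed B and 4 of feed G held the highest signal for 5 Cyp genes each (20.04% and 7.32% of all genes).

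Outside Cyp3a, the pairs within a subfamily that followed each other were Cyp2j6 with Cyp2j9 and Cyp4f14 with Cyp4f18. How far the probes of each pair bind each other's transcripts was not tested, so that these genes too are uncertain as separate measurements. Cyp2j6 had log2 signals of 14.05, 15.50 and 14.18 on feed B, 13.79, 14.54 and 15.26 on feed K, and 14.19, 13.88 and 15.52 on feed G. Cyp2j9 gave 9.56, 11.27 and 8.34, then 9.04, 9.76 and 9.97, then 9.62, 9.16 and 10.31 for the same mice. Mice 8 of feed B, 4 of feed K and 11 of feed G were highest for both genes, with 1 such mouse on each feed, and the feed means of Cyp2j6 differed by less than 0.1.

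For Cyp2j6 and Cyp2j9 r was 0.807 and rho 0.883 (adjusted p = 0.012 and 0.013, exact permutation). Without both mice farthest from the median of Cyp2j6 r was 0.586, and without mouse 8 of feed B it was 0.735 with an adjusted p of 0.125 (exact permutation), so that the relation rests partly on that mouse. These genes are neighbours with no protein-coding gene between them. For Cyp4f14 and Cyp4f18, which lie on chromosomes 17 and 8, r was 0.913 (adjusted p = 0.0070, exact permutation) and rho 0.767 (adjusted p = 0.073). It was 0.903 without both farthest mice and 0.867 without mouse 8 of feed G, where the adjusted p was 0.064. Cyp4f14, a leukotriene hydroxylase, ranged from 14.17 in mouse 8 of feed G to 16.30 in mouse 4 of feed K, and Cyp4f18 from 10.95 to 12.48, with its lowest value in the same mouse. Of the other 12 pairs none passed an adjusted p of 0.05. Cyp2c40 with Cyp2c55 had r of 0.62 and rho of 0.12, and Cyp4f13, a neighbour of Cyp4f14, had r of -0.25 with it.

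The other genes of the P450 system were taken from lists of redox partners with heme supply and of regulators. Of the former 8 had a probe and were tested, and 0 had an unadjusted p under 0.05. Por, the reductase that feeds microsomal P450s, ranged from 10.41 in mouse 7 of feed B to 12.69 in mouse 11 of feed G, the mouse with the lowest Cyp3a11. Alas1, which starts heme synthesis, ran from 11.96 to 12.74. Of the regulators 12 had a probe and 10 were tested, again with 0 under 0.05. The receptors of Cyp3a and Cyp2b genes, Nr1i2 (PXR) and Nr1i3 (CAR), ranged from 9.62 to 10.43 and from 9.15 to 11.33, each with its lowest signal in mouse 7 of feed B. Nr0b2 (SHP), which bile acids induce, was detected in 5 mice and was highest in mouse 11 of feed G, at 10.18, beside 9.32 or less in the others. Of 4 measured targets of the aryl hydrocarbon receptor other than Cyp genes, 3 were tested and 0 had an unadjusted p under 0.05.

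The clock output factors of the PAR bZip group, which drive daily rhythms of drug metabolism genes such as Cyp2b10 in liver, were listed beside the P450s. All 4 listed genes had an unadjusted p under 0.05, as did 5.37% of all genes (Dbp 0.0089, Tef 0.0046, Hlf 0.0025, Nfil3 0.00065) and none passed the correction, with adjusted p between 0.652 and 0.729. Dbp had means of 11.00 ± 1.30 (SD, n = 3) on feed B, 13.13 ± 0.44 on feed K and 13.39 ± 0.63 on feed G, and Nfil3, their repressor counterpart, 10.07 ± 0.19, 9.46 ± 0.09 and 8.93 ± 0.14. Cyp2b10 had means of 9.30 ± 1.12, 9.38 ± 0.63 and 8.73 ± 1.06. Since the time of day was not recorded, feed and time of sampling cannot be told apart. The intestinal glucose transporter Slc5a1 (15.39 ± 0.31, 16.53 ± 0.06 and 16.34 ± 0.53) and Gata4, a factor of proximal intestine (9.40 ± 0.55, 10.35 ± 0.15 and 9.07 ± 0.43), were the enterocyte markers with an unadjusted p under 0.05 (0.0089 and 0.010), 2 of 6 tested beside the 5.37% of all genes. Of the 7 measured enterocyte markers 6 were detected in all mice. Smooth muscle markers were detected in all mice for 5 of 6 genes, with summed log2 signals of 16.0 to 16.8, and B cell markers were low in mice 1 and 3 of feed K, at 9.92 and 9.64 summed, against 11.22 or more in the others. The summed adipocyte markers were highest in mouse 10 of feed B, at 14.47, and were 11.87 to 13.54 in the others.

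The remaining tested members showed wide ranges, and no difference by feed passed the test. Cyp2b10 ranged from 7.54 in mouse 11 of feed G to 10.52 in mouse 8 of feed B, a 7.91-fold span, and Cyp2c29 from 7.43 to 10.46. Cyp2e1 ranged from 9.07 to 11.25, with its lowest value in mouse 8 of feed B, where it was not detected, and Cyp2d22 from 8.34 to 10.35. Cyp2d26 ran from 12.70 to 14.03, Cyp4f13 from 10.20 to 11.97 and Cyp4f16 from 9.63 to 11.18. The entry Cyp2c50;Cyp2c54, detected in 7 mice, ran from 7.26 to 8.83. All 6 tested Cyp4 genes had a higher mean on feed K than on feed B, by a median of 0.35 beside 0.05 over all genes. The differences ran from 0.01 for Cyp4f13 to 0.55 for Cyp4f14, and the probes of Cyp4v3;Klkb1 went opposite ways (0.33 and -0.28). The share of all genes with a higher mean on feed K was not counted. All 6 were higher after median scaling too (median 0.77, all genes 0.41) and in the series table (0.61, all genes 0.21), whereas without mouse 7 of feed B 4 of 6 were higher, with a median of 0.17. None of these differences passed the test.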

How the data were processed

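The authors deposited 1 analyzer output per array, holding a background-corrected and spatially normalized intensity for each spot with its standard deviation, a signal-to-noise score and a quality flag. A table of the whole series, also deposited by the authors, holds the assay-normalized intensity on a linear scale, identical in all 297108 values to that column of the array tables. What that step divides by is not known, and RMA is named in the submitters' processing notes without a role. Genome build and probe sequences are not given in the sources used here.

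Between 432 and 1045 spots per array carried a flag over 5000 and were removed. Quantile-normalized intensities were put on the log2 scale, and probes sharing a symbol were averaged. Genes detected on at least 3 of 9 arrays were fitted with limma 3.58.1 in R 4.3.3 (a mean per feed, moderated F test and 3 pairs), with Benjamini-Hochberg adjustment over all 9652 genes at 0.05. All p-values printed with a difference between feeds come from this fit. In data simulated for the test of the 3 feeds it recovered 119 of 200 genes changed by a log2 value of 2 and 0 of 200 changed by 1, among 9556 genes. Correlations have exact permutation p-values over 9 mice (numpy 2.4.6, scipy 1.17.1, Python 3.11.15), and promoter windows were aligned with Biopython 1.88.

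Alternatives were median scaling, the series table, single probes, the brightest probe, failed flags kept, no filter or detection on 5 or 9 arrays, a signal-to-noise threshold of 5, spots below 1 left out, a floor at percentile 5, subtracted feed means and leaving out each mouse. Members and gene lists were chosen with earlier results of these data known. Genes named are the 12 with the smallest p of the feed effect, the 5 largest and 5 smallest SDs, those detected in all mice of 1 feed and none of another, those whose probes disagree in detection, pathway genes with an unadjusted p under 0.05, and a fixed list of well-known members. The number of arrays limits the precision.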

Additional observations from a re-analysis of the deposited data

Results flagged for a closer look

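Taking the 9 mice together, the distance of the highest or lowest mouse from its neighbour was divided by the whole range for each of the 32 tested Cyp genes, and values above Dixon's limit for 9 values are given here. By chance about 1 in 20 genes passes, or 1.6 of 32, and 5 did. Genes that move together do not count as separate observations.

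Mouse 11 of feed G was low for Cyp3a11 (ratio 0.641, 11.70 against 13.73 in the next mouse), Cyp3a16 (0.578, 10.94 against 12.82) and Cyp3a44 (0.562, 11.49 against 13.43). Mouse 7 of feed B was high for Cyp2c40 (0.636, 15.30 against 13.39). Mouse 8 of feed B was high for Cyp2c70 (0.588, 11.49 against 10.36), on a spot that did not count as detected.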

How the results depend on the processing

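No Cyp gene passed an adjusted p of 0.05 (limma) in the feed effect or in any of the 3 pairs under any of the 20 alternatives. The lowest adjusted p was 0.0896, for the feed effect on Cyp39a1 without mouse 10 of feed B. Cyp39a1 left the test without any 1 mouse of feed G, with detection on 5 or 9 arrays and at a signal-to-noise threshold of 5. Over the 15 remaining settings, main one included, which all keep the 3 mice of feed G, its difference between feeds G and B lay between 1.18 and 1.83 (adjusted p 0.108 to 0.676), and between feeds G and K between 1.504 and 1.73 (adjusted p 0.266 to 1.00). Cyp2c37 changed sign between feeds G and B, to -1.01, when spots below a signal-to-noise ratio of 1 were left out. Its undetected probe was then averaged in for mouse 1 of feed K and mice 4 and 11 of feed G alone. The median SD of the Cyp genes, 0.55, was 0.65 after median scaling (all genes 0.44) and 0.74 with spots below that ratio left out (all genes 0.34). Leaving out 1 mouse gave 0.491 to 0.572. Of the 5 correlated pairs, Cyp2j6 and Cyp2j9 fell to r = 0.74 without mouse 8 of feed B (adjusted exact permutation p = 0.125) and Cyp4f14 and Cyp4f18 to r = 0.87 without mouse 8 of feed G (adjusted exact permutation p = 0.0644). Under median scaling the median difference over all genes was 0.41 for feed K minus B, 0.53 for G minus B and 0.11 for G minus K (0.05, 0.06 and -0.01 after quantile normalization), and over the Cyp genes 0.24, 0.34 and 0.06 (-0.01, -0.04 and -0.10).

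No paired analysis was possible because the feeds were given to separate mice, whose numbers do not pair them across feeds. An array run or scan date as a block was not run, since no usable one was found in the files. Only the 32 of 59 Cyp genes detected on 3 or more arrays have a test.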
